A study of Mus musculus with 19 samples.

Results

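The cells described here are colon epithelial cells of day 8 of regeneration whose secretory RNA lay between that of a large population with almost none and that of a population rich in it. They were chosen by a score, called SEC here, the percentage of a cell's UMIs (unique molecular identifiers, each standing for 1 captured RNA molecule) that came from Reg4, Spink4, Agr2, Muc2, Tff3, Fcgbp, Clca1 and Zg16. Cells with SEC from 1% to under 4% are called intermediate. They numbered 440 of the 3253 barcodes retained (13.5%), beside 2020 barcodes with SEC under 1% (low-secretory) and 793 with SEC of at least 4% (high-secretory). A class made from a score is a range and not a cell type. The values of the 8 genes are therefore a description of the choice, and those of genes that accompany them follow from it in part.

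The study examined how the colon epithelium regenerates its stem cells after they are lost, and the role of the transcription factor Ascl2 in this. The mice behind the 1 single-cell library had the genotype Ascl2(mCh); Lgr5Dtr-Egfp+ on a mix of C57BL/6 and 129/Sv. They thus carried mCherry as a reporter of Ascl2, and at Lgr5 both GFP and the receptor for diphtheria toxin. Diphtheria toxin, 50 ug/kg, had been injected every other day, 4 times, which kills cells that express Lgr5. Epithelium was released in EDTA, digested with Accumax, Dispase and TrypLE and sorted for mCherry in the absence of GFP, so every class here passed the same sort and carried the same alleles and toxin. The labels give no age and no number of animals, there is no other single-cell library to share barcodes with, and the number of libraries (1) allows no test between conditions. Tamoxifen in the shared protocol served to knock out Ascl2, and this genotype label names no Cre allele.

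In colonic crypts, dividing progenitors near the base give rise to absorptive colonocytes and to secretory cells. Notch signalling between neighbours holds back the secretory fate through Hes1, which represses Atoh1, the master factor of secretory cells; cells that escape switch on Atoh1 and the Notch ligands Dll1 and Dll4, and then Spdef, Creb3l4 and the mucus and secretion genes. Secretory progenitors can divide for a time before they mature, and Reg4, Kit and Agr2 mark deep crypt secretory cells, which lie among the stem cells of the colon. In droplet sequencing, 2 cells of different kinds caught in 1 droplet give a barcode that also carries RNA of both kinds.

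The name given to these cells rests on Reg4, a secreted lectin (chromosome 3, 98222138 to 98236748), Agr2, an endoplasmic reticulum protein needed to make Muc2 mucin (chromosome 12, 35992925 to 36004081), and Top2a, the topoisomerase that untangles chromosomes before division (chromosome 11, 98992947 to 99024199; all GRCm38.p6). The promoters of these 3 genes, from 250 bases before to 50 bases after the start, are shown because they carry the secretory and the dividing side of the label. They were taken from RefSeq (GRCm38.p6) at chr3:98221906-98222205 on the plus strand, chr12:35992675-35992974 on the plus strand and chr11:99024140-99024439 on the minus strand, and all 3 symbols matched. For Reg4 and Top2a the start used for the window lies slightly inside the gene bounds given above, not at their edge. Capitals mark the CCAAT box, searched as CCAAT or its reverse complement ATTGG, the letters that the factor NF-Y binds in many cell division promoters.
Reg4: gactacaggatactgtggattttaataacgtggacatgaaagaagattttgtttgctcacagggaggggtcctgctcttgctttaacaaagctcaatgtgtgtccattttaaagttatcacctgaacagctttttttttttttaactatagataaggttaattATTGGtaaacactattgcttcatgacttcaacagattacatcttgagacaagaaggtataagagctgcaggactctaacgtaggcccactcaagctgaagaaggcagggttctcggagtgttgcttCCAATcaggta
Agr2: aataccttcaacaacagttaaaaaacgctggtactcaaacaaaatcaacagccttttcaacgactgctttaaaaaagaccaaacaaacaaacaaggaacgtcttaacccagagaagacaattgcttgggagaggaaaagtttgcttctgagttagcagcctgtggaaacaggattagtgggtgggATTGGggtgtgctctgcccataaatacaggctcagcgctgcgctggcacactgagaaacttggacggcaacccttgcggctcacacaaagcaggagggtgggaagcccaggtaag
Top2a: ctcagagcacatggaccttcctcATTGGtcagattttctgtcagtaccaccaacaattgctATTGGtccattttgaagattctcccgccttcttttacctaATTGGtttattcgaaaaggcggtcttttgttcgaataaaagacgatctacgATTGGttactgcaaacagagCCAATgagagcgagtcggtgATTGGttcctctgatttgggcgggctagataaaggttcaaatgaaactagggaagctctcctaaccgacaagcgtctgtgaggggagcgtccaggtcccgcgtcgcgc
The Top2a window held 6 matches, the Reg4 window 2 and the Agr2 window 1. Of 27025 promoters of this length, 1 per gene, 37.9% held at least 1. A match is a description of the letters, not a bound site.

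The library and its filters set the ground for the comparison. The deposited matrix held 90094894 UMIs over all barcodes. Of 3265 barcodes with at least about 6800 UMIs, 12 had over 20% mitochondrial UMIs and were left out. The low-secretory barcodes held 56641579 UMIs, the intermediate 12738325 and the high-secretory 11601984. Median mitochondrial shares were 5.15%, 5.30% and 5.11% in that order. Free RNA, read from 1184926 barcodes of at most 100 UMIs, had a SEC of 1.64%. Of the 440 intermediate cells 311 lay above that level and 129 at or below it, while the median of the low-secretory cells, 0.0782%, was 4.76% of it.

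Near the bounds of the range the score ran on without a gap. Inside the lower bound 43 cells had SEC from 1% to under 1.2%, and just outside it 63 cells had 0.8% to under 1%. At the upper bound 54 cells had 3.5% to under 4% and 66 cells had 4% to under 4.5%. The lowest intermediate cell was at 1.00% and the highest at 3.996%, against a highest low-secretory cell at 0.995% and a lowest high-secretory cell at 4.02%. Most low-secretory cells were far from the range, with 1803 of 2020 under 0.2%.

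Intermediate cells were about as deep as low-secretory cells and deeper than high-secretory cells. The median was 26867.5 UMIs in intermediate cells (95% interval of the median 25921 to 28156; middle 90% of cells 9935 to 55389), 25496 in low-secretory cells (24602 to 26394) and 13064 in high-secretory cells (12772 to 13329). A barcode holding the median low-secretory and the median high-secretory cell together would have 38560 UMIs and a SEC of 2.39%. The order depends on which cells the bounds take in. With Spink4 left out of the score and the bounds unchanged, 801 cells fell in the range, by construction including cells with more secretory RNA. Their median was 0.552 times that of low-secretory cells, in place of 1.05. Of the 440 intermediate cells 92 reached 38560 UMIs (20.9%, exact Clopper-Pearson 95% interval 17.2 to 25%) and 348 did not. Intervals here and below cover counting error only, since the cells of 1 library are not replicates.

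Depth declined over most of the range. Median depth was 24301 UMIs at SEC under 0.2% and reached 41391 at 0.5 to under 0.8%, below the range. It was 30664 UMIs at 1 to under 1.2%, 36275 at 1.2 to under 1.5%, 27663 at 2 to under 2.5%, 23043 at 3 to under 3.5% and 17933.5 at 3.5 to under 4%. Above the range it was 18799.5 at 4 to under 4.5% and 12441 at 4.5 to under 5%. Genes detected followed depth, with medians of 4894.5, 5146 and 3348 in low-secretory, intermediate and high-secretory cells. After every cell had been thinned to that minimum, which left out no cell, the medians were 2365, 2397 and 2293 genes (intervals of the medians 2359 to 2372, 2389 to 2409 and 2286 to 2301).

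**Figure D1:**
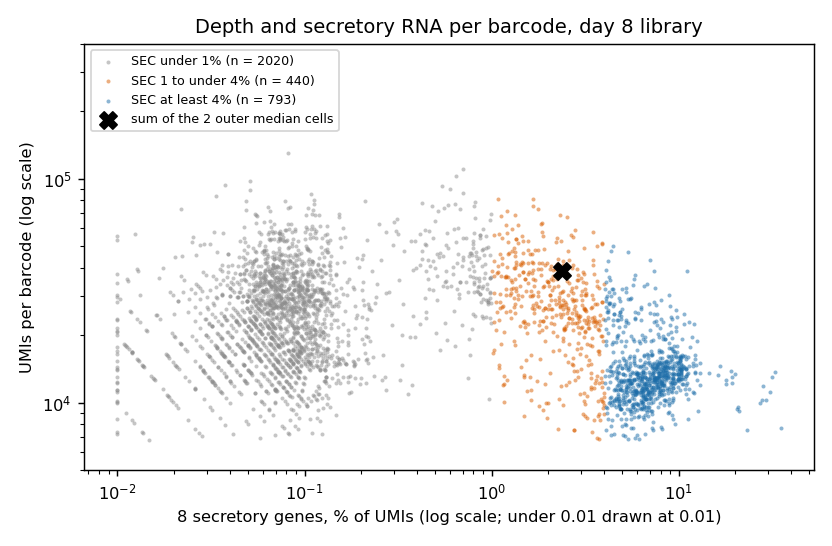
UMIs per barcode against SEC, the percentage of UMIs in the 8 secretory genes, both on log scales, with 1 point per barcode of the day 8 library and classes by colour; the cross marks the sum of the median low-secretory and median high-secretory cell, at 38560 UMIs and 2.39%. Most intermediate points, 348 of 440, lie below the cross, and they run down from the depth of the low-secretory cells towards that of the high-secretory cells.

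The 8 genes that made the score were not present in equal proportion. Reg4 was at 101, 2477 and 9852 CPM (counts of a gene scaled so that the UMIs of a class sum to 1e6) in low-secretory, intermediate and high-secretory cells. Agr2 was at 901, 5923 and 13422 CPM. Spink4, a secreted protease inhibitor of goblet cells, was at 369, 8762 and 33153 CPM, and Muc2, the gel-forming mucin, at 61.7, 2447 and 9726 CPM. After thinning, Reg4 was detected in 25.3% of low-secretory, 94.5% of intermediate and 95.7% of high-secretory cells, and Muc2 in 13.9%, 97.7% and 100%. These levels were chosen by the rule. The makeup of the score was not fixed by it: Agr2 gave 57.2%, 27.4% and 18.3% of the 8 genes' UMIs in the 3 classes, Tff3 6.68%, 3.68% and 1.97%, and Zg16 0.997%, 3.62% and 6.41%.

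Tff3, a trefoil peptide of mucus, differed between its share of cells and its summed level. It was detected after thinning in 62.5% of intermediate cells (57.8 to 67.0%), 34.0% of high-secretory and 13.1% of low-secretory cells, although its summed level was higher in high-secretory cells (795 CPM against 1446 CPM). At SEC 0.2 to under 1%, below the range, it was detected in 74.7% of 217 cells, more than in any step within it. Within the range it was detected in 71.2% of cells at 1 to under 1.5% and 67.9% at 1.5 to under 2%. At 2 to under 3% the share was 56.1%, and at 3 to under 4% 58.4%. Above the range it was 42.6% at 4 to under 6% and 27.1% at 6 to under 12%. Because the share and the summed level go in opposite directions, no order is read from the share. Zg16, a granule lectin, and Clca1, a mucus-processing protein, were carried by few cells. The 10 highest intermediate cells held 78.3% of Zg16 and 80.2% of Clca1 UMIs, against 7.3% of Reg4 UMIs, and Zg16 was detected in 13.2% of intermediate and 13.9% of high-secretory cells.

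Factors that specify secretory cells were found in the intermediate cells. Of 14 listed factors, 9 reached 50 CPM in intermediate or low-secretory cells. At least 2-fold higher than in low-secretory cells were 5 of these 9 (median of the 9, 2.16-fold), where 2.71% of all 2992 genes compared were so (81 genes) and the median gene was at 0.954-fold. Atoh1, Spdef, Creb3l4 and Foxa3 reached the bound in intermediate cells only, so they had to be higher there and the count is no support. Atoh1 was at 8.83, 101 and 253 CPM in low-secretory, intermediate and high-secretory cells, 11.4-fold higher in intermediate than low-secretory cells (counting interval 10.3 to 12.7) and 2.5-fold lower than in high-secretory cells. Spdef, which drives secretory maturation, was at 4.43, 68.4 and 213 CPM, and Creb3l4 at 5.01, 52.9 and 143 CPM. Foxa3 and Creb3l1 were the other 2 of the 5, at 3.16-fold and 2.16-fold. Against high-secretory cells, 4 of 11 factors compared were at least 2-fold lower (Atoh1, Spdef, Creb3l4 and Foxa3), where 3.93% of 3054 genes were. Sox4, a progenitor factor, was 2.80-fold higher at 69.2 against 24.7 CPM, where 5.5% of genes were at least 2-fold higher. Of these 2 classes Sox4 reached 50 CPM in intermediate cells only. It had to be higher there, so its fold is no support.

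The factors differed in how many intermediate cells held them. Atoh1 was detected after thinning in 50.9% of intermediate cells (46.1 to 55.7%), 4.4% of low-secretory and 75.3% of high-secretory cells, and Spdef in 43.6% (38.9 to 48.4%), 2.5% and 69.1%. Gfi1 was detected in 2.5% of intermediate cells and Dll4 in 9.1%. The median intermediate cell held 89.4 CPM of Atoh1 (quartiles 37.2 and 173), against a median of 0 in low-secretory and 217 in high-secretory cells. Across the range Atoh1 was at 70.4, 90.2, 103 and 156 CPM at SEC 1 to under 1.5%, 1.5 to under 2%, 2 to under 3% and 3 to under 4%. Spdef was at 50.3, 54.3, 77.7 and 96.5 CPM over those steps. Just below the range, at 0.2 to under 1%, Atoh1 was at 48.1 CPM and Spdef at 24.4 CPM.

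The Notch ligands were low but present. Dll1 was at 16.3 CPM in intermediate cells (14.1 to 18.6; 207 UMIs), 14.7 CPM in high-secretory and 3.60 CPM in low-secretory cells. Dll1 was detected in 10.9% of intermediate cells after thinning (8.2 to 14.2%), 9.0% of high-secretory and 1.7% of low-secretory cells, and its steps had no order (19.0, 16.1, 12.6 and 17.9 CPM). Dll4 was at 10.3 CPM (131 UMIs) between 1.84 and 18.5 CPM, and Gfi1, a repressor downstream of Atoh1, at 5.26 CPM (67 UMIs) between 0.424 and 10.00 CPM. Hes1, the Notch target, was at 111 CPM in intermediate cells against 153 CPM in low-secretory and 46.5 CPM in high-secretory cells. Of the 12 Notch pathway genes listed, Hes1 alone reached 50 CPM in a compared class, and the receptor Notch1 was at 21.7, 15.2 and 3.88 CPM. Hes1 was detected in 56.1%, 40.5% and 22.6% of thinned cells.

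Other secretory products accompany the score's genes, so their levels follow from the choice in part. Of 21 listed genes, 15 reached 50 CPM in intermediate or low-secretory cells, many of them only through the intermediate cells, which had to be the higher class there. For this reason nothing is read from the count of 15 at least 2-fold higher than in low-secretory cells (2.71% of all genes were). Against high-secretory cells 15 of 19 were at least 2-fold lower, where 3.93% of all genes were, with a median of 0.42-fold against 1.07-fold over all genes compared. Of the 19, 15 reached 50 CPM in intermediate cells too. The others, Kit among them, passed through high-secretory cells only. They had to be lower in intermediate cells, so this count is no support either. Ccl6, a chemokine of deep crypt secretory cells, was at 64.2, 1340 and 4034 CPM in low-secretory, intermediate and high-secretory cells and was detected in 15.9%, 96.4% and 99.5% of thinned cells. Kit, a receptor on deep crypt secretory cells, was at 4.29, 44.0 and 103 CPM. Nov, a secreted matricellular protein, was at 1.18, 95.1 and 554 CPM and was found in 27.3% of intermediate and 75.0% of high-secretory cells. The mast cell protease gene Cma1 was at 3.07, 173 and 896 CPM.

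Genes that fold secreted proteins in the endoplasmic reticulum were slightly higher than in low-secretory cells. All 15 listed genes reached 50 CPM, with a median of 1.37-fold over low-secretory and 0.77-fold of high-secretory cells. The medians of all genes compared were 0.954-fold and 1.07-fold. Herpud1, which helps degrade misfolded proteins, was the 1 gene at least 2-fold higher, at 202 against 100.03 CPM. Of all genes compared 2.71% were so. Hspa5, the main chaperone of that compartment, was at 654, 898 and 1159 CPM. Against high-secretory cells none of the 15 was 2-fold different, where 5.5% of all genes were at least 2-fold higher and 3.93% lower. With so few genes listed, nothing is read from either count.

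**Figure D2:**
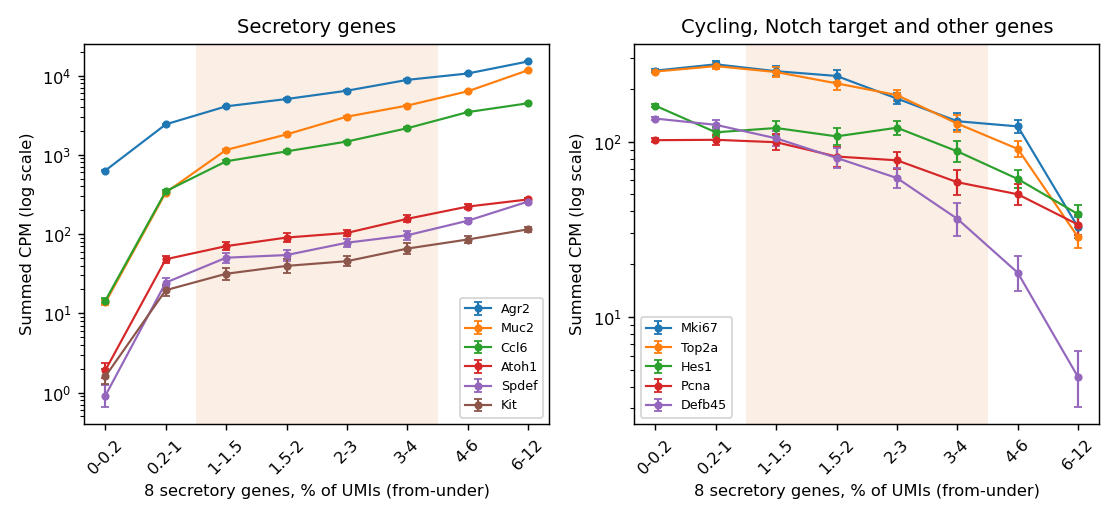
Summed CPM (log scale) of 6 secretory genes (left) and 5 cycling, Notch target and other genes (right) over 8 steps of SEC in % of UMIs; bars are exact Poisson 95% intervals and shading marks the intermediate range. Within the shading Atoh1 goes from 70.4 to 156 CPM, and Top2a from 249 to 127 CPM.

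Part of the intermediate cells carried RNA of dividing cells. Top2a was at 254, 199 and 50.8 CPM in low-secretory, intermediate and high-secretory cells, and Mki67, the proliferation marker, at 257, 202 and 64.8 CPM. After thinning Top2a was detected in 41.8% of intermediate cells (37.2 to 46.6%), 51.5% of low-secretory (49.3 to 53.7%) and 12% of high-secretory cells (9.80 to 14.4%). Top2a therefore did not mark the intermediate cells against the low-secretory cells. With Spink4 left out of the score the share of intermediate cells was 23.3%, but the range then included, by construction, cells with more secretory RNA. Within the range of the full score Top2a was at 249, 215, 184 and 127 CPM by steps.

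The lists of mitosis and replication genes behaved like Top2a. Of 26 mitosis genes, 16 reached 50 CPM against low-secretory cells, with a median of 0.78-fold (0.69 to 0.85) where the median of all genes was 0.954-fold. None of the 16 was 2-fold different. Of all genes only 2.71% were at least 2-fold higher and 0.434% lower, so nothing is read from that. Against high-secretory cells all 10 compared were at least 2-fold higher, where 5.5% of all genes were, with a median of 3.68-fold. Most of the 10, Ube2c among them, reached 50 CPM in intermediate cells only. They had to be higher there, so the count is no support. Ube2c, which helps end mitosis, was at 199, 153 and 31.7 CPM in low-secretory, intermediate and high-secretory cells. Of 18 replication genes 13 were compared with low-secretory cells at a median of 0.75-fold. Against high-secretory cells 8 of 9 were at least 2-fold higher (median 2.63-fold), where 5.5% of all genes were. Genes such as Pcna and Mcm3 reached 50 CPM in intermediate cells only, so nothing is read from this count either. Pcna, the sliding clamp of DNA replication, was at 102, 81.3 and 39.0 CPM, and Mcm3, of the replicative helicase, at 93.1, 61.3 and 18.7 CPM.

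Mitosis RNA was also read in the cells with Top2a UMIs. At least 3 Top2a UMIs per thinned cell were found in 87 of 440 intermediate cells (19.8%, 16.2 to 23.8%), 502 of 2020 low-secretory (24.9%) and 23 of 793 high-secretory cells (2.90%). The other 25 mitosis genes gave a median of 25 UMIs in those 87 cells (quartiles 15 and 37), 23 in the 502 (13 and 36) and 36 in the 23 (20.5 and 47.5). With at least 1 Top2a UMI as the bound the medians were 12 in 184 intermediate and 13 in 1040 low-secretory cells. The minimum of 3 was chosen after the values were seen. Choosing cells by Top2a favours high mitosis RNA in every class and leaves out barcodes in which it is diluted, so these medians say nothing of how many cells a barcode held.

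Secretory RNA was compared between intermediate cells with and without a Top2a UMI, all of which hold it by the rule. The 21 other secretory products gave a median of 30 UMIs per thinned cell in the 184 intermediate cells with a Top2a UMI (quartiles 21 and 41) and 36 in the 256 without (22.8 and 51). The other 25 mitosis genes had a lower quartile of 3 UMIs in those with a Top2a UMI, so not all of them were rich in mitosis RNA. The 14 specification factors gave medians of 10 and 11 UMIs in intermediate cells with and without Top2a. Atoh1 was at 95.3 CPM in those with and 106 CPM in those without. Cells with a Top2a UMI were deeper (median 30530.5 against 23803 UMIs) and lower in SEC (1.96% against 2.44%).

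**Figure D3:**
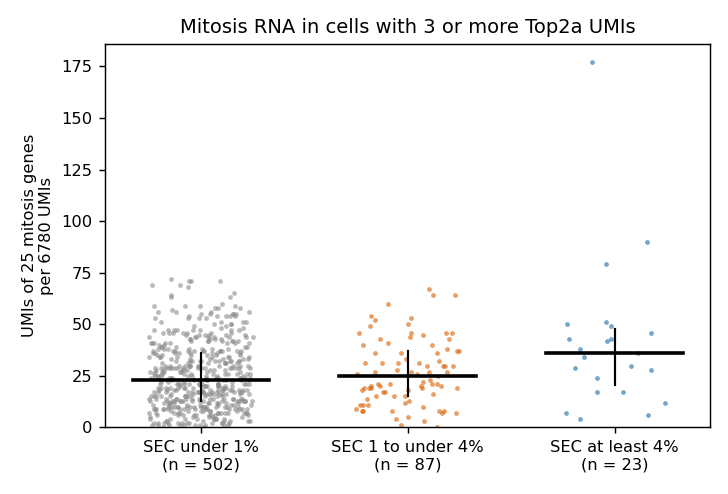
UMIs of 25 mitosis genes (the list without Top2a) per cell thinned to about 6800 UMIs, in cells with at least 3 Top2a UMIs of each class; horizontal bars are medians and vertical bars run between quartiles. The medians are 23 in 502 low-secretory, 25 in 87 intermediate and 36 in 23 high-secretory cells.

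The summed profile of the intermediate cells was then set against a plain mix of the outer classes. The summed SEC was 0.158%, 2.16% and 7.35% in the 3 classes, so 27.8% high-secretory and 72.2% low-secretory RNA give the intermediate value. Of 2792 genes at 50 CPM or more in intermediate cells, 2364 (84.7%) lay between the outer classes. The median ratio of observed to mixed level was 1.00, with 5th and 95th percentiles of 0.893 and 1.15, and 95.8% of genes lay within 1.2-fold. Top2a was at 1.01 times the mix (0.967 to 1.05) and the 10 mitosis genes at a median of 1.00. A summed level has this value both when each cell is intermediate and when barcodes hold RNA of 2 cells, so those cannot be told apart by it.

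Genes away from the mix were few. At least 1.5-fold above it were 11 genes (0.394%) and at least 1.5-fold below it 8 genes (0.287%). Ang4, an antimicrobial ribonuclease, was at 3.55 times the mix and Lyz1, lysozyme, at 2.72. The pentraxin Mptx1 was at 2.42, the lectin Itln1 at 2.05, and Retnlb, a goblet cell cytokine, at 1.99. Few cells held most of their UMIs. The 10 highest intermediate cells held 96.9% of Ang4, 89.6% of Lyz1, 75.9% of Mptx1, 96.7% of Itln1 and 86.5% of Retnlb UMIs. Without the 10 highest cells of each class Ang4 was at 0.883 and Itln1 at 1.16 times the mix, Lyz1 at 3.18, Mptx1 at 2.29 and Retnlb at 1.70. All were then under the 50 CPM bound in intermediate cells, so nothing is read from these ratios. Ang4 was at 4.32, Itln1 at 2.45, Lyz1 at 5.71, Mptx1 at 20.1 and Retnlb at 48.7 CPM.

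Of the 11, 4 others were spread over many cells. Hsd11b2, which inactivates corticosterone, was at 71.2, 395 and 579 CPM in low-secretory, intermediate and high-secretory cells, 1.86 times the mix (1.81 to 1.91). It was detected in 24.2%, 86.6% and 80.6% of thinned cells, and its 10 highest intermediate cells held 7.2% of its UMIs. Guca2b, the peptide uroguanylin, was at 29.3, 165 and 264 CPM (1.75 times the mix), Ndrg1, a stress-induced differentiation gene, at 20.6, 120 and 179 CPM (1.86 times), and Best2, an anion channel of goblet cells, at 4.22, 66.7 and 118 CPM (1.86 times). Without the 10 highest cells of each class the ratios of Hsd11b2, Guca2b, Ndrg1 and Best2 were 1.88, 1.73, 1.87 and 1.83.

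Secretory genes fell on either side of the mix. The 9 specification factors had a median of 1.15 times the mix, and 8 of the 9 were above 1; Atoh1 was at 1.32 (1.25 to 1.39) and Sox4 at 0.924. The 15 folding genes were all above 1 with a median of 1.11. The median of all 2792 genes was itself above 1, at 1.004, so a ratio above 1 was common. Their 5th and 95th percentiles were 0.893 and 1.15. The folding median lay inside that range and the median of the factors at its edge. Other secretory products had a median of 1.27, with Ang4 and Retnlb at least 1.5-fold above and Nov at 0.614 (0.580 to 0.649) below. Cma1 was at 0.689 and Ccl6 at 1.15. Of the score's own genes, whose sum is fixed by the mix, Tff3 was at 1.66, Agr2 at 1.35 and Zg16 at 0.591. Dll1 and Kit were under the 50 CPM bound and outside these medians. Dll1 was at 2.43 times the mix (2.11 to 2.78; 207 UMIs) and Kit at 1.39.

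Of the 2792 genes, 3 were at least 1.2-fold above both outer classes, and they were so too without the 10 highest cells. Baiap2l2, which binds membranes at cell protrusions, was at 51.7 CPM against 37.4 CPM in low-secretory and 37.4 CPM in high-secretory cells (1.38-fold), Plgrkt, a plasminogen receptor, at 216 against 172 and 171 CPM (1.26-fold), and Fdft1, of cholesterol synthesis, at 106 against 83.9 and 86.6 CPM (1.22-fold). The 1.2-fold rule was chosen after the values were seen.

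**Figure D4:**
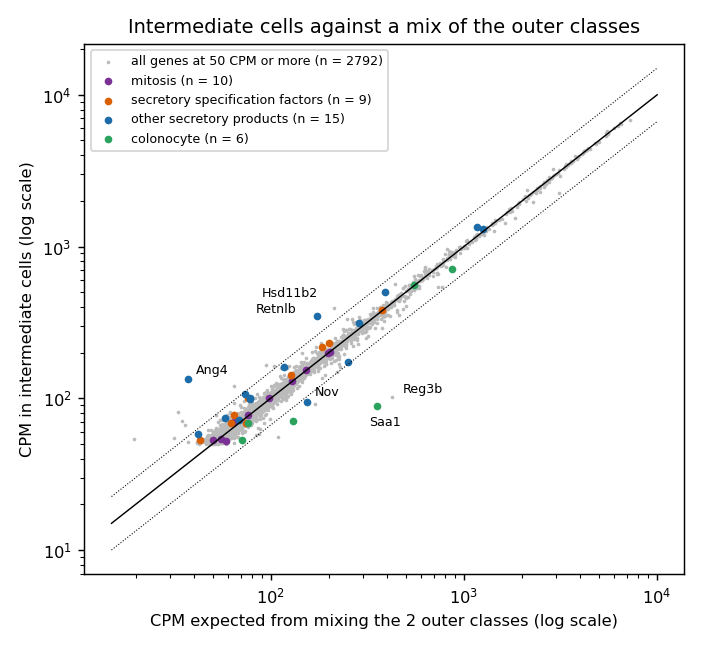
Observed CPM in intermediate cells against the CPM of a mix of 27.8% high-secretory and 72.2% low-secretory RNA, log scales, for 2792 genes at 50 CPM or more outside the 8 score genes; the solid line marks equality and dotted lines 1.5-fold. Ang4 and Retnlb stand above the band and Reg3b and Saa1 below it, while mitosis genes lie on the line.

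The genes highest relative to high-secretory cells were also present in low-secretory cells. The 10 largest excesses over high-secretory cells ran from 5.54-fold (Slc5a8, a butyrate transporter) to 8.77-fold (Trf, transferrin, at 90.7 against 10.3 CPM). Of these 10, 9 were lower in intermediate than low-secretory cells, and Nxpe2 was the exception at 93.3 against 83.7 CPM. Defb45, a defensin, was at 134, 73.2 and 9.31 CPM in low-secretory, intermediate and high-secretory cells and at 104, 80.7, 61.9 and 36.2 CPM by steps within the range. Lowest relative to high-secretory cells was Scgb1b3, a secretoglobin, at 5.26 against 50.6 CPM. Meg3, a long noncoding RNA, was at 10.4 against 79.4 CPM, and Cmah, of sialic acid synthesis, at 14.4 against 84.6 CPM. Scgb1b3, Meg3 and Cmah reached 50 CPM in high-secretory cells only, so they had to be lower in intermediate cells.

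Of 20 listed stem cell genes 3 reached 50 CPM in the comparison with low-secretory cells, and none of the 3 was 2-fold different. Of all genes only 2.71% were at least 2-fold higher and 0.434% lower, so nothing is read from that. Sox9 was at 132, 151 and 199 CPM, Slc12a2, an ion cotransporter, at 197, 335 and 438 CPM, and Cdca7, a Myc target, at 122, 88.0 and 30.9 CPM. Ascl2 itself was at 19.7, 15.2 and 8.10 CPM and was detected in 8.6% of thinned intermediate cells. Lgr5 gave 22 UMIs in all intermediate cells (1.73 CPM).

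The summed RNA of the 18 listed colonocyte genes was lower in intermediate than in low-secretory cells, at 1681 against 2562 CPM. The median cell did not differ in this way (below). Of 10 colonocyte genes compared, 6 were at least 2-fold lower than in low-secretory cells (median of the 10, 0.41-fold), where 0.434% of all genes were. Of the 2 classes compared, Car4, Slc26a3, Aqp8 and Krt20 reached 50 CPM in low-secretory cells only. They had to be lower in intermediate cells, so the count is no support. Of the rest of the 10, Fabp2 was at 0.618-fold, Plac8 at 0.729-fold, Cdhr5 at 0.955-fold and Ceacam1 at 1.27-fold of low-secretory cells. Saa1, an acute-phase protein, was at 387 CPM in low-secretory, 89.4 in intermediate and 264 in high-secretory cells, and Car4, a carbonic anhydrase, at 106, 17.9 and 46.2 CPM. Saa1 was at 0.253 times the mix, Car1 at 0.540 and Reg3b, an antimicrobial lectin, at 0.241. Their remaining RNA was held by few intermediate cells: the 10 highest held 95.1% of Saa1, 78.1% of Car1 and 98.9% of Reg3b UMIs. The median cell held 7 colonocyte UMIs after thinning in intermediate cells, 6 in low-secretory and 7 in high-secretory cells.

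Cells with a strong colonocyte signal were counted in each class. At least 27 colonocyte UMIs after thinning, a minimum chosen after the values were seen, were found in 201 of 2020 low-secretory cells (9.95%, 8.68 to 11.3%), in 16 of 440 intermediate cells (3.64%, 2.09 to 5.84%) and in 36 of 793 high-secretory cells (4.54%, 3.20 to 6.23%). Since SEC chose the classes, every such intermediate or high-secretory cell also held secretory RNA.

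Other cell types were close to absent. Pyy, an enteroendocrine hormone, was at 77.4 CPM in low-secretory and 0.550 CPM (7 UMIs) in intermediate cells, and the 10 enteroendocrine genes summed to 120, 28.1 and 34.0 CPM in low-secretory, intermediate and high-secretory cells. The 9 tuft cell genes summed to 2.83 CPM in intermediate cells, 10 immune genes to 1.18 CPM and 8 stromal and endothelial genes to 0.393 CPM. Barcodes with at least 10 UMIs of a list numbered 1 of 440 for enteroendocrine, 0 for tuft, 1 for immune and 0 for stromal genes. Neurog3, Gcg, Cck and Insl5 gave no UMI in intermediate cells.

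Sex-linked RNA gave no handle on shared droplets in this library. Xist, the transcript of the inactive X chromosome, was found in 5 low-secretory, 1 intermediate and 0 high-secretory cells. At least 1 UMI of the Y-linked genes Ddx3y, Kdm5d, Eif2s3y or Uty was found in 90.6%, 93.4% and 85.4% of cells. Only 1 of 440 intermediate cells (0.227%, 0.00575 to 1.26%) held both. With Xist so rare in every class, this count could not detect pairs in which both cells came from males.

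Cells most alike were sought over 2000 variable genes with the 8 score genes left out, and intermediate cells were mostly nearest to each other. Of the 20 nearest neighbours of an intermediate cell a mean of 69.3% were intermediate (median 75%), 16.6% low-secretory and 14% high-secretory, where intermediate cells are 13.5% of all. In 343 of 440 (78.0%) intermediate cells made up the majority. Low-secretory cells had 97.7% and high-secretory cells 89.8% of neighbours in their own class. The neighbours turned with the score. At SEC 1 to under 2%, 31.2% were low-secretory and 1.97% high-secretory, at 2 to under 3% 8.27% and 11.2%, and at 3 to under 4% 2.65% and 37.5%.

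Neighbours of both outer classes were found for 72 of 440 intermediate cells. Among low-secretory cells 19 of 2020, and among high-secretory cells 18 of 793, had neighbours of both of these classes. Neighbours of intermediate cells with a Top2a UMI were 71.8% intermediate, 20.8% low-secretory and 7.39% high-secretory, and of those without 67.6%, 13.6% and 18.8%. Secretory genes outside the score remained in the set, and depth, which differed between the classes (above), was not matched. The part of depth in the neighbour shares was not tested.

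**Figure D5:**
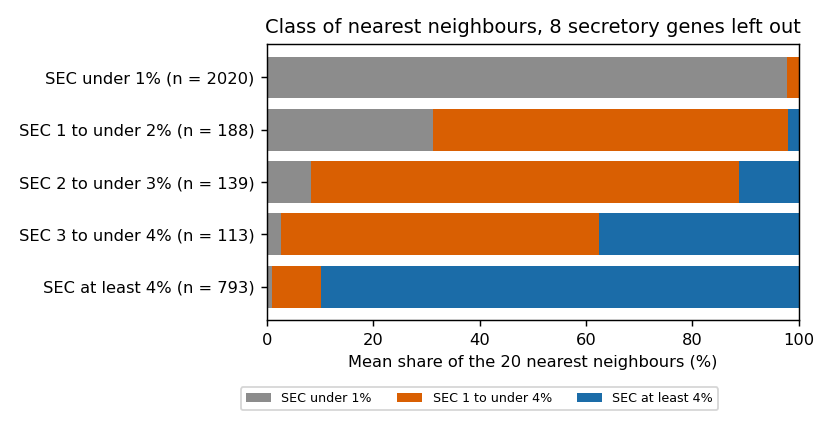
Mean share (%) of the 20 nearest neighbours that belonged to each class, over low-secretory cells, intermediate cells in 3 steps of SEC, and high-secretory cells, with the 8 score genes left out. Intermediate cells make up 66.8%, 80.5% and 59.8% of neighbours in the 3 middle bars, and the rest passes from low-secretory (31.2% at SEC 1 to under 2%) to high-secretory (37.5% at SEC 3 to under 4%).

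The 92 intermediate cells at or above the depth of the summed median cells differed from the 348 below it. Atoh1 was at 59.99 CPM in the deeper and 124 CPM in the shallower cells, Spdef at 44.7 and 81.7 CPM, Kit at 24.4 and 55.1 CPM and Ccl6 at 822 and 1631 CPM. Top-heavy products went the other way: Zg16 was at 1959 and 121 CPM, Retnlb at 816 and 84.1 CPM and Clca1 at 277 and 24.5 CPM. Mki67 was nearly level, at 205 and 201 CPM. The division of the cells by this depth was chosen after the values were seen, and SEC also declines with depth, so a part of these differences follows from the score. Whether barcodes with 2 cells contribute to the deeper group was not tested.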

How the data were processed

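The deposited matrix of the day 8 library holds UMI counts per gene and barcode, raw, for all barcodes of the droplet run (10x 3' v3 chemistry, HiSeq4000, per the labels' protocols). The authors made it with Cell Ranger 3.0.2, per the file headers. The submitters' processing notes name GRCm38 and mm10 without a role, and the gene annotation is not given in the sources used here. The number of cells loaded is not legible in the labels' text and is not used. The table of bulk counts was not used here.

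Barcodes with at least 6780 UMIs, 500 genes and at most 20% mitochondrial UMIs were kept. UMIs were summed per class and divided by the class total to give CPM, with exact Poisson 95% intervals, and shares of cells have Clopper-Pearson intervals. Shares and per-cell list sums come from cells thinned to 6780 UMIs. Folds of 2 between classes were read where the higher class had at least 50 CPM, and folds of 1.5 against the mix where intermediate cells did; the last bound was set after values were seen. There is 1 library, so no test was run. Neighbours were found in 30 principal components of log-scaled values of 2000 variable genes. Scrublet as run in scanpy, with an expected share of 2.5%, marked 1 of 3253 barcodes, in the low-secretory class. That is too few for the caller to have worked, so doublets were not removed outside 1 alternative setting.

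The intermediate class, the bounds and the 15 gene lists (marker, score, specification factor, other secretory product, folding, replication, mitosis, stem cell, Notch, colonocyte, enteroendocrine, tuft, immune, stromal with endothelial, and sex-linked genes) were chosen with earlier results of these data known. Genes named were the 8 score genes, list members, and the 10 highest and 10 lowest genes outside the score and mitochondrial genes against each outer class and against the mix; Baiap2l2, Plgrkt and Fdft1 were named after their values were seen. Alternatives changed the UMI and mitochondrial bounds, the score, the range, the comparison classes, the CPM and fold bounds, thinning seeds and the number of neighbours. A further alternative left out the barcode that Scrublet marked. Python 3.11.15, numpy 2.4.6, scipy 1.17.1, pandas 2.3.3, scanpy 1.11.5, scikit-learn 1.9.0 and matplotlib 3.10.9 were used. The summing and mixing steps were tested on simulated data.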

Additional observations from a re-analysis of the deposited data

How the results depend on the processing

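No paired analysis was possible because the cells came from 1 library and no result rests on a test. Of 82 values recomputed under other settings, 67 stayed within the counting interval of the reported value (gene and cell counts, within 1.5 times of it), 14 did not, and 1 changed direction. The 67 include every value recomputed without the barcode that Scrublet marked. That setting left out 1 low-secretory barcode and no intermediate cell, so it could hardly change a value and says nothing of doublets. Leaving Spink4, the most abundant score gene, out of the score with the bounds unchanged put 801 cells in the range, by construction including cells with more secretory RNA. There the ratio of their median UMIs to that of low-secretory cells was 0.552 in place of 1.05, and the share with a Top2a UMI was 23.3%. Against the mix, Top2a was then at 0.740, the mitosis genes at a median of 0.781 and the specification factors at 1.33. In that setting 203 genes were at least 2-fold higher than in low-secretory cells and 41 at least 2-fold lower than in high-secretory cells, and 0 cells held both Xist and Y-linked UMIs. The 81 genes at least 2-fold higher than in low-secretory cells were 138 at a bound of 20 CPM, 17 at 200 CPM and 179 at 1.5-fold. The 120 genes at least 2-fold lower than in high-secretory cells were 54 at 200 CPM and 355 at 1.5-fold. With 50 neighbours the median share of intermediate neighbours was 74%. Other settings kept these values within their error or within 1.5 times, among them outer classes of SEC under 0.2% and of 4% to under 12%, which were chosen after the data were seen.

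Depth limits genes such as Gfi1 (67 UMIs in intermediate cells) and Lgr5 (22 UMIs), whose shares of cells are imprecise. The library has no replicate, so every interval understates the spread between animals. The bounds of the range and the score's makeup set which cells are intermediate. Leaving out Spink4 with the bounds unchanged alters both at once, so their parts in the change cannot be told apart.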
